A study of Zea mays with 168 samples.

Results

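Transcript levels were compared in primary roots of a pair of maize (Zea mays) inbred lines and of the reciprocal hybrids made from them. The 4 genotypes are labelled 005x005 and 250x250, the lines, and 005x250 and 250x005, the hybrids. Samples were chosen by the genotype in their titles, which gave 49 samples of the series, whose 84 slides carry 2 samples each. Slides 28 and 48 held nearly the same values in both channels, with correlations of 0.997 and 0.996 over the tested spots, and were averaged and counted once. This left 47 samples, of which 18 were 005x005, 16 were 250x250, 7 were 005x250 and 6 were 250x005. The scanner intensities of 1 sample, 005x005 on slide 1, correlated more with the deposited log2 values of the other channel of its slide (Spearman's rho 0.988) than with its own (0.801). Without slides 0 and 1 the calls of each comparison stayed within 1.5 times of those given below.

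The study paired RNA of 16 genotypes, 4 lines with all their hybrids, on cDNA slides read in Cy3 and Cy5. Every sample was a pool of about 20 roots taken 3.5 days after germination, and the series text calls each an independent biological replicate. Per the labels, all groups were grown and handled alike, and no transgene or agent is named. Which parent of a hybrid was the seed parent is not stated in the labels, so each hybrid is called by its label.

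In a cross of inbred lines, a transcript is called additive when its level in the hybrid lies at the mean of both parents and non-additive when it departs from that mean. Reciprocal hybrids receive the same pair of nuclear genomes but differ in which line gave the cytoplasm, with its mitochondria and plastids, and in which parent's allele an imprinted gene expresses. The primary root is the first root of the maize seedling, and its growth is one of the early traits in which hybrids can outgrow their parents. The spots are named by expressed sequence tag (EST) identifiers. Only 8 identifiers could be paired with a gene symbol, so nearly all spots below are given by identifier, without a role, and the root origin of the samples could not be checked by marker genes.

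Values are the authors' log2 values. The level of a spot is given on the log2 scale above the median tested spot of the same sample, and a difference between genotypes is a log2 difference from the fit. That fit took 1 ratio of Cy5 over Cy3 from each of 80 slides, with terms for the 16 genotypes and for the dye, and a spot was called when its adjusted p over all 11838 tested spots was under 0.05 (limma, Benjamini-Hochberg).

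The hybrids were compared with each other and with the lines on 11 slides that carry 2 of the 4 genotypes. No slide carried both lines, which were therefore compared through other genotypes. Slides 18 and 19 had the widest log2 ratios of the fit, with standard deviations (SD) of 0.98 and 1.14 against a median of 0.45 over its 80 slides. On slide 46 the ratios spread by 0.47, with a tail of spots far brighter in 250x005. Each result is therefore given with all slides and without slides 18, 19 and 46. Log2 ratios of separate slides with the same genotypes were turned to the same order, without correction for dye. They were correlated over 11838 spots that share their slide and its print pattern. The correlations ranged from -0.30 for slides 15 and 19, with exchanged dyes, to 0.33 for slides 18 and 944, with the same dyes. By the dyes in the titles, the median was 0.09 over 2 pairs with the same dyes and -0.17 over 5 with exchanged dyes.

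The 250x005 samples were dim. The share of tested spots above the unnamed spots at the edge of the print blocks ran from 12.7% to 32.1% in 250x005, with a median of 21.4%. It ran from 28.2% to 80.8% in 005x250, from 14.1% to 82.6% in 005x005 and from 22.2% to 82% in 250x250, with medians of 54.4%, 56.6% and 68.8%. The highest 250x005 sample thus lay below the median of each other genotype, although the ranges overlapped. Within slides the order was mixed. The 250x005 sample lay above its partner on slide 15 (19.2% against 14.1%) and slide 44 (32.1% against 28.2%). It lay below on slides 28 (23.6% against 30.3%), 46 (13.8% against 30.9%), 19 (12.7% against 55.4%) and 16 (28.8% against 73.1%). The part of this brightness in the differences of 250x005 was not tested.

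**Figure D1:**
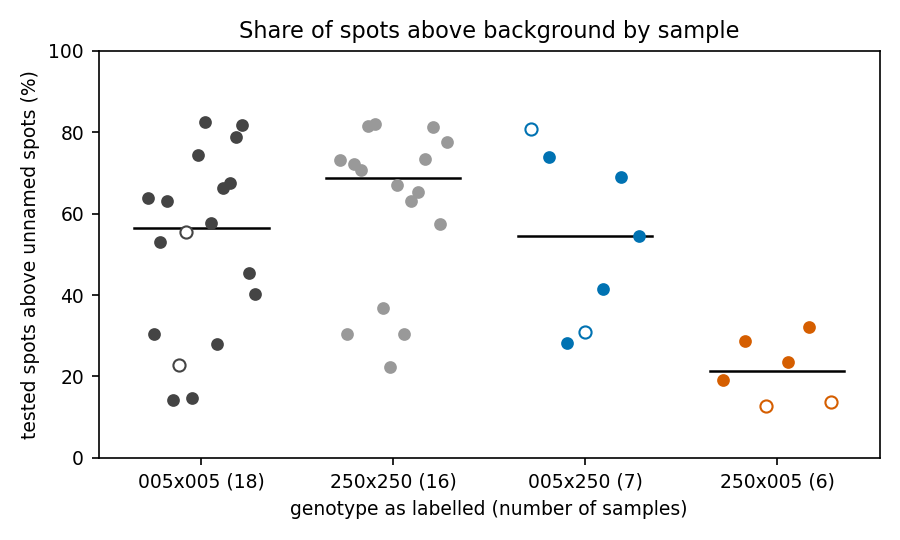
Percent of tested spots above all but the brightest 2.5% of the unnamed edge spots (y axis) for each sample of the 4 genotypes (x axis), with the median as a line and samples of slides 18, 19 and 46 as open circles. All 6 samples of 250x005 lie at or below 32.1%, under the medians of the other genotypes.

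The first question was whether the hybrid 005x250 departs from the mean of its parents. It did so at 1 of 11838 spots (0.00845%), and at none (0%) without slides 18, 19 and 46. The unadjusted p was under 0.05 at 961 spots (8.12%) with all slides and at 341 (2.88%) without those slides (limma). If no spot differed, a share of 0.05 would fall below this limit on average. The median standard error (SE) of this difference was 0.185, so that a 95% interval reached about 0.369 to each side.

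The called spot was BM078327. Its level in 005x250 ran from -0.80 over a median of -0.01 to 1.02. In 005x005 it ran from -1.12 over -0.18 to 0.25, and in 250x250 from -0.87 over -0.19 to 0.42. Single levels overlapped between all 3 genotypes, and the call came from ratios within slides. The hybrid was above the line it shared a slide with on each of slides 18, 34, 942, 944 and 945, by 1.32, 0.10, 1.18, 0.99 and 0.06. The 3 larger ratios were against 005x005 and the 2 near 0 against 250x250. The fitted difference was 0.76 ± 0.14 (SE, adjusted p = 0.018, limma). It was 0.64 ± 0.16 without slides 18, 19 and 46 (adjusted p = 0.4). Leaving out slide 18, 46 or 944 alone ended the call, at differences of 0.65, 0.76 and 0.71 (adjusted p = 0.63, 0.052 and 0.11). With the median of the surrounding spots subtracted, the difference was 0.26 ± 0.11 (adjusted p = 0.79).

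No spot was called lower in 005x250. The 3 with the smallest p were AI668173, at -0.84 ± 0.18 (SE), AW052909, at -0.79 ± 0.19, and AW331788, at -0.79 ± 0.18. Their adjusted p were 0.051, 0.12 and 0.12 in limma. AI668173 and AW052909 lie in the same print block, and on slide 944 both were more than 2 lower in the hybrid than in 005x005, at -2.14 and -2.29, while on slide 34 they lay at -0.04 and -0.02. The slides thus differed widely in these spots.

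The second question was the same for 250x005. Here 205 spots were called (1.73%), most of them higher than the parental mean (1.14% of tested spots) and 70 lower (0.591%). Without slides 18, 19 and 46 there were 14 (0.118%), 12 higher and 2 lower, and 10 spots were called both ways. From the scanner intensities 224 spots were called, of which 34.8% were higher, against 65.9% here. Leaving out slide 19 alone left 1 call, AI622401 at 1.38.

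BM078939 had the largest drop among the 10. Its level in 250x005 ran from -1.57 over -0.78 to 1.18. In 005x005 it ran from -1.37 over 0.17 to 1.94, and in 250x250 from -0.60 over 0.13 to 2.72. Of the 6 levels in 250x005, those on slides 16, 19 and 46 were the 3 lowest and the one on slide 15 was the highest, and all groups overlapped. Within slides the hybrid was below the line every time, by -0.76 and -1.38 against 005x005 on slides 15 and 19 and by -1.32 and -2.66 against 250x250 on slides 16 and 28. The difference from the parental mean was -1.22 ± 0.23 (SE, adjusted p = 0.0032, limma), and -1.23 ± 0.28 without the 3 slides (adjusted p = 0.04). Leaving out slide 19 alone ended the call, at an adjusted p of 0.1.

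BG842214 was the other drop, at -0.88 ± 0.24 (SE, adjusted p = 0.038, limma). It ran from -1.09 over -0.55 to 0.76 in 250x005, from -2.16 over 0.11 to 1.01 in 005x005 and from -0.21 over 0.54 to 1.89 in 250x250. The drop was larger against 250x250, with ratios of -1.76 and -1.14 on slides 16 and 28, than against 005x005, with -0.20 and -0.32 on slides 15 and 19.

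Of the spots that were higher in 250x005 both ways, AW231481 had the largest difference. Its level ran from -0.29 over 0.80 to 2.20 in 250x005, from -1.77 over -0.58 to 0.66 in 005x005 and from -1.61 over -0.85 to 0.32 in 250x250. Most samples of the hybrid stood above their own median spot and most samples of the lines below it. Ratios to the line on the same slide were positive on all 4 slides, at 1.86, 0.87, 0.51 and 2.01 on slides 15, 19, 16 and 28, and the difference was 1.03 ± 0.20 (SE, adjusted p = 0.0032, limma).

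AI622401 followed at 0.99 ± 0.24 (SE, adjusted p = 0.022, limma), with levels in 250x005 from -0.03 over 1.17 to 3.92. The highest was that of slide 46, where 005x250 was 4.52 lower, and without slide 46 the difference was no longer called (adjusted p = 0.15). BE129843 was the brightest of the 10 and was 0.84 ± 0.19 (SE) higher in the hybrid (adjusted p = 0.016). Its levels overlapped fully, from 0.98 over 2.37 to 3.47 in 250x005, from 0.70 over 2.53 to 3.70 in 005x005 and from -0.60 over 2.02 to 4.31 in 250x250. All 4 ratios within slides were nevertheless positive, from 0.56 to 1.58. With the median of the surrounding spots subtracted, BE129843 was 0.19 higher and not called.

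AI615233, BG873751, BG873873 and AI612451 were printed close together in print block 18. They were 0.69 to 0.81 higher in 250x005, and on slide 16 the hybrid exceeded 250x250 by 2.41 to 3.52 at all 4. On slide 28, with the same genotypes, it did so by 1.94, 0.41, 1.71 and 0.46, and on slides 15 and 19 the ratios to 005x005 lay between -0.10 and 0.51. The ratios to 250x250 were thus positive on both slides and those to 005x005 within 0.51 of 0. For BG873751 the level on slide 16 was 3.46, while its median in 250x005 was -0.12, and without slide 16 its difference was 0.12. With the median of the surrounding spots subtracted, AI615233, BG873751 and BG873873 were 0.35, 0.39 and 0.23 higher and none was called. AI586645, in print block 19, was the remaining spot of the 10, with a ratio of 1.96 on slide 16 and of 0.25 to 0.66 on the other slides.

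Of the spots called only with all slides, AI964659, BG841321, BG842222 and AW018262 were 1.19 to 1.38 higher in 250x005. On slide 19 the hybrid exceeded 005x005 by 5.54, 5.83, 3.11 and 2.06 at these spots, and on slide 15, with the same genotypes, by -0.26, 0.14, -0.07 and -0.24. Without slide 19, AI964659 was 0.43 higher (adjusted p = 0.62) and BG841321 0.27 higher (adjusted p = 0.87), while BG842222 was 0.82 higher (adjusted p = 0.091). On slide 46, 250x005 exceeded the other hybrid at AW018262 and BG842222, whose ratios of 005x250 to 250x005 were -4.40 and -1.94. Of the larger drops, AW331072 was -1.32 ± 0.32 (SE), AW091499 -1.31 ± 0.27, BM075308 -1.29 ± 0.26 and BM334218 -1.12 ± 0.28, with adjusted p of 0.02, 0.0051, 0.0051 and 0.027 in limma. These 4 drops kept sizes of -1.25, -1.12, -1.23 and -1.06 without slides 18, 19 and 46, where none was called. Their ratios to 250x250 lay between -2.96 and -1.82 on slide 16 and between -2.13 and -1.03 on slide 28. Against 005x005 all 4 were within 0.44 of 0 on slide 15, but between -2.45 and -1.72 on slide 19.

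The lines were compared next. No spot was called between 005x005 and 250x250 with all slides (0%), where the smallest adjusted p was 0.052 in limma. At 1306 spots (11%) the unadjusted p was below 0.05. The median SE of a line difference was 0.209. Without slides 18, 19 and 46, 44 spots were called (0.372%), 43 of them lower in 005x005 and 1 higher, and 95 were called when slide 19 alone was left out. All 44 had the same sign with all slides, and 43 of them were also called when slides were weighted by their quality. Both are weak checks. The fit with all slides adds only slides 18, 19 and 46, and the weights of slides 18 and 19 were 0.185 and 0.146. Only 15 were called with the medians of the print blocks subtracted and 14 with those of the surrounding spots.

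The 3 spots nearest to a call on the higher side were BG842301, BG841578 and AI615170. BG842301 ran from -0.07 over 2.44 to 4.95 in 005x005 and from -1.62 over 1.05 to 2.06 in 250x250. Its hybrids lay between, with medians of 2.35 in 005x250 and 1.33 in 250x005. The medians of the lines stood well apart although the samples overlapped, and the difference was 1.62 ± 0.37 (SE, adjusted p = 0.052, limma). It was the 1 higher spot called without the 3 slides, at 1.60 ± 0.40 (adjusted p = 0.042). BG841578 was 1.15 ± 0.29 and AI615170 0.72 ± 0.18 higher, each with an adjusted p of 0.085.

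On the lower side AI783258 ran from -0.25 over 0.39 to 2.32 in 005x005 and from -1.37 over 1.26 to 3.33 in 250x250. The range of 250x250 held that of 005x005. The difference was -1.73 ± 0.36 (SE, adjusted p = 0.052, limma) and -1.63 ± 0.38 without the 3 slides (adjusted p = 0.041). BM340632 and AI622244 were -1.07 ± 0.23 and -0.92 ± 0.20, both with an adjusted p of 0.052 with all slides and of 0.034 without the 3.

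The largest differences among the 44 were at bright spots, chosen here after their values were seen. AI855309 ran from 0.33 over 2.02 to 5.1 in 005x005 and from 0.63 over 3.48 to 7 in 250x250. It was -2.89 ± 0.71 (SE) without the 3 slides (adjusted p = 0.042) and -2.68 ± 0.70 with all slides (adjusted p = 0.085). AJ507106, AI770716, AI491646 and AI600664 followed, from -2.88 to -2.61 without the 3 slides. The mean level in 005x005 against 250x250 was 2.58 against 3.67 at AI855309, 4.03 against 5.20 at AJ507106, 4.25 against 4.10 at AI770716, 3.72 against 3.77 at AI491646 and 3.47 against 3.70 at AI600664. The mean levels of single samples thus differed by less than the fitted differences at all 5, and at AI770716 in the opposite direction. The deposited values of single samples differ in spread, and levels were not scaled for this. Their SD ran from 0.93 to 1.89 in 005x005 and from 1.18 to 1.55 in 250x250.

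The last main question was whether reciprocal hybrids differ. With all slides this comparison had the most calls of the 5, 388 spots (3.28%), 229 higher in 005x250 (1.93%) and the rest lower (1.34%). Without slides 18, 19 and 46 there were 22 (0.186%), 15 higher and 7 lower, and 20 were called both ways, 15 higher and 5 lower. The scanner intensities gave 629 calls, 76% of them higher, against 59% here. The share higher was 96.6% with the 11 slides alone and 82.7% with bright spots only. Leaving out slide 19 alone left 77 calls, of which 41.6% were higher, and without slide 44 the share was 45.3% of 384 calls, so that most calls were lower in both cases. Leaving out slide 15 raised the calls to 588.

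BM073252 had the smallest adjusted p among the 20. Its levels in the 7 samples of 005x250 ran from -0.84 over 0.20 to 2.08, and in the 6 samples of 250x005 from -1.58 over -1.03 to 0.08. The lines lay between these medians, at -0.29 for 005x005 and 0.00 for 250x250. The highest level of all was that of 005x250 on slide 44 and the lowest of the hybrids that of 250x005 on slide 19, and the hybrids overlapped in the middle. The difference was 1.57 ± 0.26 (SE, adjusted p = 0.00047, limma). It was 1.62 ± 0.30 without the 3 slides (adjusted p = 0.0059), and the spot was called in all 19 alternatives that gave it a value and in each of the 11 fits that left out 1 slide. These fits reuse many of the same slides. A further fit that is not among the 19, without slides 18, 19, 44 and 46, called 0 spots between the hybrids.

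**Figure D2:**
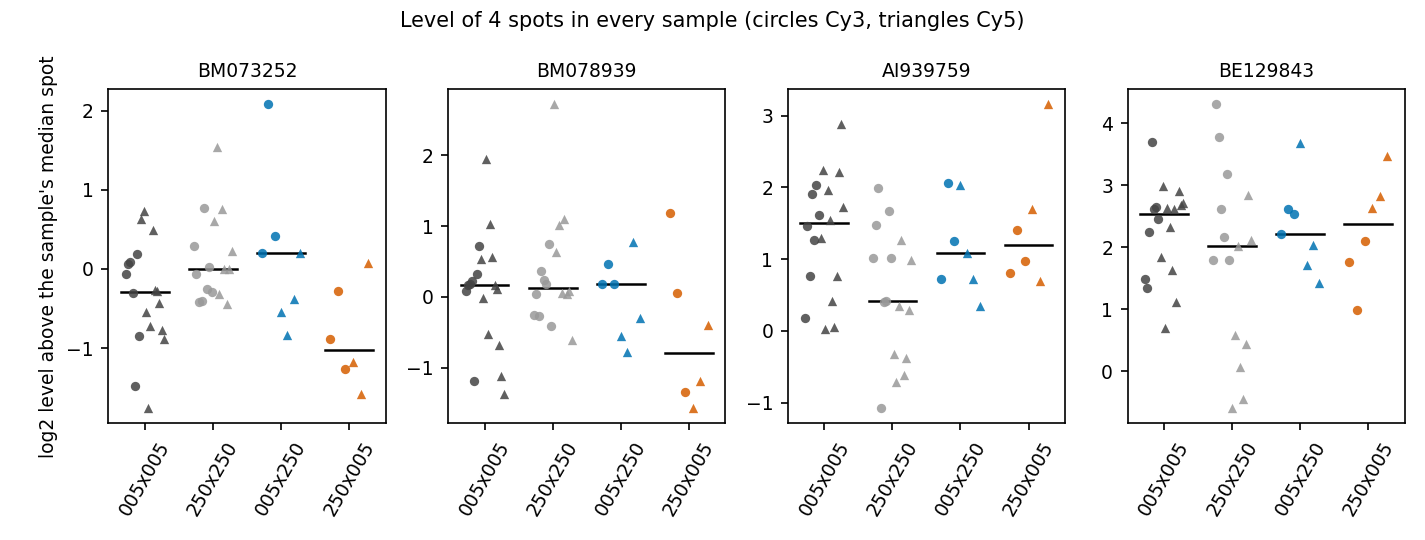
Log2 level above the sample's median tested spot (y axis) for BM073252, BM078939, AI939759 and BE129843 in each sample of the 4 genotypes (x axis), with Cy3 samples as circles, Cy5 samples as triangles and the group median as a line. The median of BM073252 is -1.03 in 250x005 and 0.20 in 005x250, and in all 4 panels the samples of the genotypes overlap.

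BM340717, AW091502, BM379680, BM075148 and BM078837 were 1.52 to 1.58 higher in 005x250, with SE from 0.27 to 0.34 and adjusted p from 0.001 to 0.0048 in limma. BM078837 ran from -1.14 over 0.34 to 1.99 in 005x250 and from -1.38 over -0.38 to 0.88 in 250x005, so the hybrids overlapped widely. BM340717 ran from -0.82 over 0.55 to 2.60 in 005x250 and from -0.86 over -0.46 to 0.12 in 250x005, where no sample reached the other hybrid's median. Both stayed called in each fit that left out 1 slide. BM078939 and BG842214, the 2 spots called lower in 250x005 than its parents both ways, were among the 15 at 1.33 and 1.35, and both comparisons use the same 250x005 samples.

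The slides were then read one by one. The 15 spots were chosen as higher in fits that include these slides, so their sign on each slide is a description and no independent check. Slides 18, 19 and 46 entered 1 of the fits and the other slides both. This also holds for the ratios within slides given above for called spots. On slide 44, where both hybrids were hybridised together, all 15 were higher in 005x250, by 0.84 to 2.47 with a median of 2.04. On slide 46, with the dyes exchanged, 14 of 15 were higher, but by a median of 0.46 and at most 0.76. Against 005x005 the 15 spots were higher in 005x250 by a median of 1.07 on slide 18 and 1.34 on slide 944. In 250x005 their median ratio to 250x250 was -1.47 on slide 16 and -0.89 on slide 28, and to 005x005 it was -1.54 on slide 19 and -0.03 on slide 15. On slide 15, 6 of the 15 ratios were positive, and on slide 34, where 005x250 met 250x250, 4 were, so the slides did not all run the same way.

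By the dyes in the titles, the size of these ratios went with the dye. Where 005x250 was in Cy3, on slides 18, 44 and 944, its median ratios were 1.07, 2.04 and 1.34. Where it was in Cy5, on slides 34, 46, 942 and 945, they were -0.09, 0.46, 0.14 and 0.22. Every slide with 005x250 in Cy3 thus lay above every slide with it in Cy5. The ratios of 250x005 to a line also went with the dye. Their medians were -1.47 and -1.54 where it was in Cy5, on slides 16 and 19. Where it was in Cy3, on slides 15 and 28, they were -0.03 and -0.89. For slides 942, 944 and 945 the label field gives the opposite dyes, and by these the slides with 005x250 do not separate by dye. For slides 15, 16, 19 and 28 both fields give the same dyes. The fit has 1 dye term that is the same for all genotypes, and the part of dye effects particular to a genotype or slide in this result was not tested.

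The 5 spots lower in 005x250 both ways were AI939791, BE129843, AI939759, AW400041 and AI920392. AI939759 ran from 0.34 over 1.08 to 2.06 in 005x250 and from 0.70 over 1.19 to 3.16 in 250x005, and its hybrids overlapped nearly throughout. Its difference was -0.95 ± 0.21 (SE, adjusted p = 0.0071, limma), and -1.33 ± 0.25 without the 3 slides (adjusted p = 0.0059). AI920392 ran from 0.87 over 1.16 to 2.27 in 005x250 and from 1.19 over 1.85 to 2.28 in 250x005, and was -0.70 ± 0.16 (adjusted p = 0.0072). AI939791, BE129843 and AW400041 were -0.97 ± 0.26, -0.97 ± 0.22 and -0.86 ± 0.21, with adjusted p of 0.023, 0.0071 and 0.015.

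The ratios of these 5 spots are likewise a description, since the same fits chose them. On slide 44 all 5 were lower in 005x250, from -1.11 to -0.81, and on slide 46 they lay between -0.39 and 0.12. In 250x005 they were higher than 250x250 on slides 16 and 28, by medians of 0.68 and 1.58, and than 005x005 on slide 15, by 1.06. On slide 19, which also carries 250x005 and 005x005, their median was -0.02 and 2 of the 5 were higher. Apart from AI920392 in block 22, they were printed in block 17. That block held 73 of the 388 calls, 19.6% of its 372 tested spots. With the median of the surrounding spots subtracted, the differences of the 5 shrank to between -0.37 and -0.14 and none was called.

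**Figure D3:**
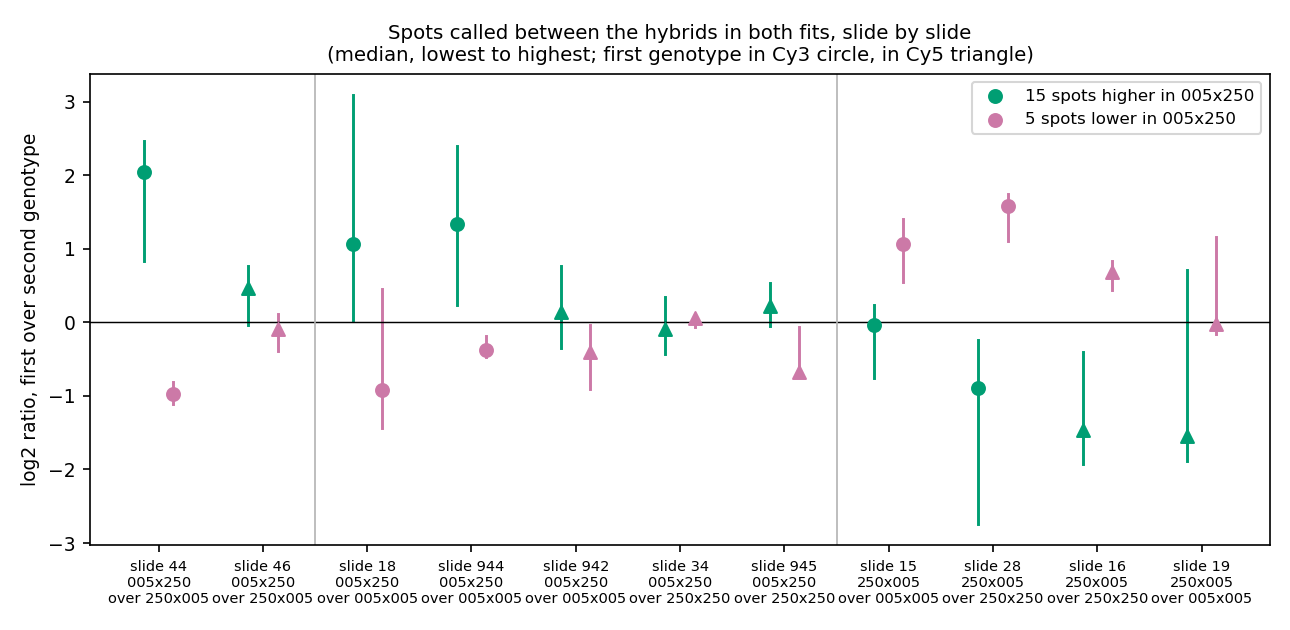
Log2 ratio of the first over the second genotype (y axis) on each of the 11 slides (x axis), as the median with the lowest and highest value over the 15 spots higher (green) and the 5 lower (pink) in 005x250, with circles where the first genotype was in Cy3 and triangles where it was in Cy5. The green medians are 2.04 on slide 44 and 0.46 on slide 46, and 1.07 and 1.34 on slides 18 and 944 against -0.09 to 0.22 on slides 34, 942 and 945.

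Larger differences were found at spots called only with all slides. AI461544, the brightest of them with a mean level of 5.15 over all samples, was 2.12 ± 0.65 (SE) higher in 005x250 (adjusted p = 0.05, limma). BM073284, AI622411 and BM331754 were 1.83 ± 0.50, 1.61 ± 0.41 and 1.61 ± 0.35 higher, with adjusted p of 0.028, 0.018 and 0.0052. AI622411 ran from 2.07 over 2.62 to 3.78 in 005x250 and from -0.03 over 1.01 to 2.26 in 250x005, which barely overlapped. Without slide 19 the differences of AI622411, BM073284 and AI461544 were 1.27, 1.58 and 1.26, with adjusted p of 0.14, 0.14 and 0.38, while BM331754 stayed called at 0.044.

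On the lower side AW042394, AI691683, AI622401 and AW018262 were -1.89 ± 0.38 (SE), -1.83 ± 0.38, -1.59 ± 0.28 and -1.55 ± 0.26, with adjusted p from 0.00047 to 0.0044 in limma. On slide 46 they stood at -6.99, -6.50, -4.52 and -4.40, and on slide 44 at -0.44, -0.16, -0.24 and -0.07. Without slide 46 their differences were -0.30, -0.35, -0.67 and -0.65 and none was called.

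Slides 44 and 46 were also read apart from the fit, since they alone carry both hybrids. Turned to 005x250 over 250x005, with the dyes exchanged and no correction for dye, their ratios had a correlation of 0.076 over 11838 spots. Only 6 spots departed by at least 1 the same way on both slides, while 14 did so in opposite directions. AW054215 (1.66 and 1.32), BG873808 (1.46 and 1.08), BM335553 (1.45 and 1.08) and AI891331 (1 and 1.03) were higher in 005x250. AI715016 (-1.03 and -1.12) and AI622369 (-1.25 and -1.39) were lower. None of the 6 was called in the fit with all slides, where their adjusted p ran from 0.085 to 0.68, and AI622369 stood at 2.19 in the opposite direction on the other slides alone.

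A fit without both direct slides called 719 spots (6.07%). Of these, 79.7% had the same sign on slide 44, 67.5% on slide 46 and 54.7% (393 spots) on both. Over all tested spots these shares were 63.5%, 59.8% and 40%. The called spots thus kept their sign on the direct slides more often than tested spots at large, and no test was made of the difference. When slides 18 and 19 were left out as well, limma called 0 spots, and 1007 had an unadjusted p below 0.05.

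**Figure D4:**
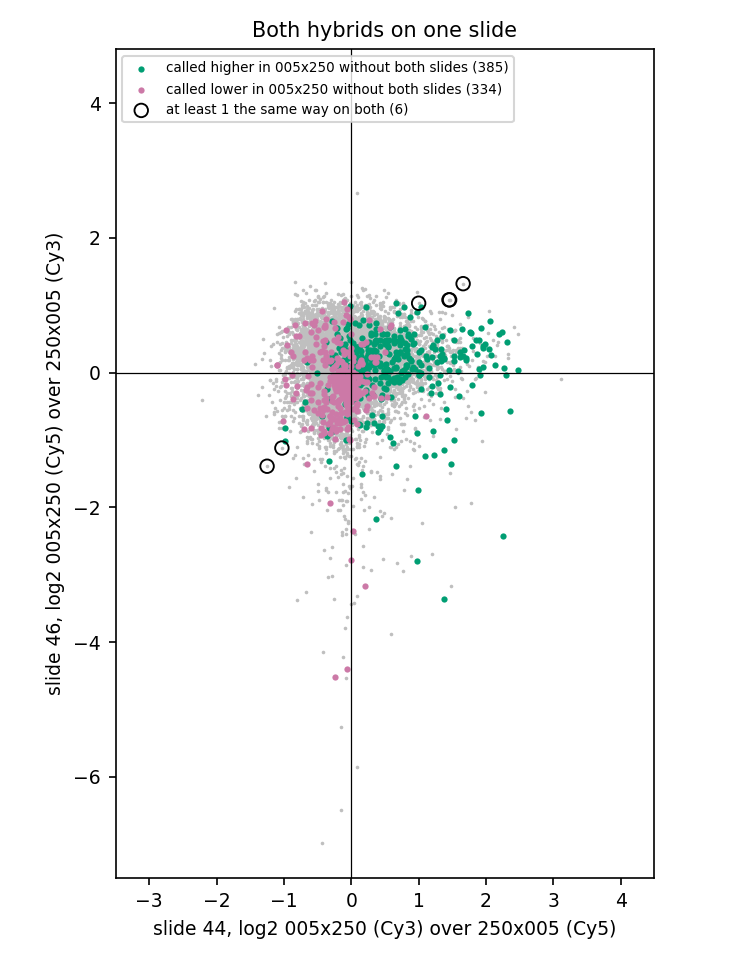
Log2 ratio of 005x250 over 250x005 on slide 44 (x axis) and slide 46 (y axis), each dot a tested spot, with the spots called in the fit without both slides in green (385 higher) and pink (334 lower) and rings around the 6 spots that depart by at least 1 the same way on both. The correlation is 0.076, and a tail of spots reaches -6.99 on slide 46 without a counterpart on slide 44.

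The called spots shared features that the choice of genotypes did not use. Identifiers that begin with BM made up 11.6% of tested spots. Of these, 78 were called higher in 005x250 (5.7%, against 1.93% of all spots) and 1 lower, and 11 of the 15 spots higher both ways were BM spots. All BM spots lay in columns 16 to 19 of the 19 columns of their print blocks. Of the other spots in these columns 2.44% were called higher, against 1.33% of spots in columns 1 to 15, so identifier and position on the slide cannot be fully told apart. In 250x005 against its parents, 29 BM spots were called lower (2.12%, against 0.591% of all) and 4 higher.

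Calls also lay side by side on the slide, and whether this is separate from the pattern by column was not tested. Of the reciprocal calls higher in 005x250, 52% had a directly neighbouring spot called higher, against 9.98% of all tested spots. Of the lower calls 71.7% had a neighbour called lower, against 5.58% of all. For 250x005 against its parents these shares were 65.9% against 5.14% for the higher calls and 37.1% against 3.24% for the lower. Identifiers with several spots give a further comparison. Of 402 such identifiers, 28 had a spot called between the hybrids, and none of these had all its spots called. Their spots had the same sign in 13 of the 28. For 250x005 these numbers were 21, 0 and 8. The same counts were not made over all 402 identifiers, so neither agreement nor disagreement can be read from them.

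The mean of both hybrids against the mean of both lines asked for a departure that the hybrids share. It was called at 16 spots (0.135%), all higher in the hybrids, and at none (0%) without slides 18, 19 and 46. Without those slides the unadjusted p was below 0.05 at 535 spots (4.52%, limma). Leaving out slide 16 alone left 0 calls, slide 19 alone 1 and slide 18 alone 2. BG842040, BG841668, BG840808 and AI979439 had the largest differences, from 0.80 to 0.91, with adjusted p from 0.0087 to 0.047 in limma. All 4 were printed in block 21. BG842040 ran from 0.05 over 0.43 to 0.80 in 005x250 and from -0.40 over 0.10 to 3.40 in 250x005, against -1.18 over -0.18 to 1.29 in 005x005 and -0.43 over 0.45 to 1.43 in 250x250. The highest level was that of slide 19, where 250x005 exceeded 005x005 by 2.95 to 4.18 at the 4 spots, and on slide 18 005x250 exceeded it by 1.76 to 1.93. Without the 3 slides the 4 differences were 0.27 to 0.38. With the median of the surrounding spots subtracted, they were 0.13 to 0.21 and none was called.

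On the lower side BM075308, BM341676 and BM351071 came closest to a call, at -0.85 ± 0.21 (SE), -0.63 ± 0.18 and -0.44 ± 0.11, with adjusted p of 0.058, 0.18 and 0.095 in limma. BM075308 stood at -0.56 in the median 250x005 sample, against 0.22 in 005x250, 0.36 in 005x005 and 0.43 in 250x250. Its departure was thus mainly that of 250x005.

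None of the 10 spots of the 8 identifiers with a gene symbol was called in any of the 5 comparisons. Nearest to a call was AI987507 (LOC542198), which was -0.66 ± 0.21 (SE) in 005x250 against 250x005 (adjusted p = 0.058, limma) and 0.55 ± 0.18 in 250x005 against its parents (adjusted p = 0.098). One spot of AI665898 (LOC100191184, which the reference names a reticulon, a protein family of the endoplasmic reticulum membrane) was 0.37 ± 0.16 in 005x250 against its parents (adjusted p = 0.55) and 0.31 ± 0.14 in the mean of both hybrids (adjusted p = 0.52). AW257883 (LOC100279628) was 0.58 ± 0.27 in 005x005 against 250x250 (adjusted p = 0.41). All differences of these spots in the 5 comparisons lay between -0.66 and 0.68. Apart from the 5 given here, 34 of the other 45 changed sign under at least 1 alternative.

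The reciprocal comparison had calls in every alternative that could estimate it, apart from the fit without slides 18, 19, 44 and 46. With slides weighted by their quality, 250x005 had 3 calls, the lines 183 and the reciprocal comparison 264. With the 11 slides alone, only the reciprocal comparison kept calls, 58 of them, of which 55 were among the 388.

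**Figure D5:**
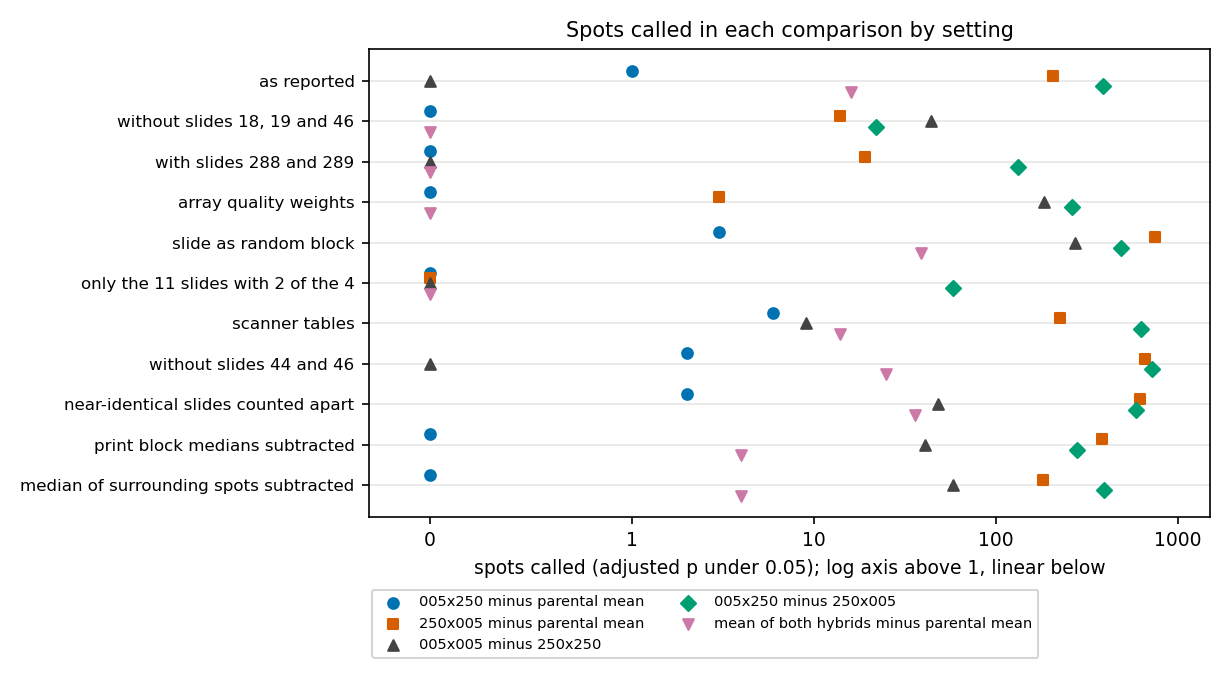
Number of spots called (x axis, logarithmic above 1) in the 5 comparisons under the reported setting and 10 alternatives (y axis). The reciprocal comparison (diamonds) ranges from 22 to 719 calls here and the departure of 250x005 (squares) from 0 to 752, while the departure of 005x250 (circles) never exceeds 6.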

How the data were processed

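Each of 47 samples is 1 channel of a slide. The main values are the log2 values deposited by the authors, who per the deposited notes picked 1 scan for every channel and normalized it by a method not given in the sources used here. Linear intensities of scans at rising gain, deposited by the authors in scanner tables, served as an alternative after their rows were brought into the order of the log2 values. The number of slides limits the precision of arrays. Values listed at exactly 0 (951 in 49 member columns, 884 of them in 1 column) were taken as missing.

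Log2 ratios of Cy5 over Cy3 were formed per slide, which makes the slide a fixed block, and fitted in limma 3.58.1 (R 4.3.3) with 16 genotypes and dye (64 residual degrees of freedom). Slides 288 and 289, whose channels had deposited medians 1.48 apart, were left out, and slides 28 and 48, and 26 and 472, were averaged. Dyes follow the titles, which on slides 942, 944 and 945 differ from the label field. Of 12160 spots, 190 had no identifier and were not tested, nor were identifiers printed 12 times. Spots sharing an identifier were kept apart, since their levels had little in common, and the identifier may be wrong for part of them. The fit was also run on simulated data with 200 changed spots, the outcome of which is not given here.

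Named spots were, per comparison, up to 6 per direction called both with all slides and without slides 18, 19 and 46, then up to 4 more called with all slides. A direction without calls is given by its 3 smallest p, and spots with a symbol are included. Genotypes, comparisons, lists and tests were chosen with earlier results of these data known. Gene lists and markers by name could not be applied, since 8 of 11431 tested identifiers were paired with a symbol (RefSeq, Zm-B73-REFERENCE-NAM-5.0). Another 18 scanner columns match no labelled sample and were not used. Alternatives covered slides, weights, dye, scaling, dim spots, spatial medians and scanner tables.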

Additional observations from a re-analysis of the deposited data

Results flagged for a closer look

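In 3 of the groups of hybrid samples examined, 2 for each of 19 selected spots, 1 sample lay apart from the rest. The groups share samples, so this count was not set against chance. Larger single values at other named spots are not among the 3. An example is AI964659, at 11.06 in 250x005 on slide 19 against a median of 0.66. BG873751 stood at 3.46 in 250x005 on slide 16 against a median of -0.12. BM073252 stood at 2.08 in 005x250 on slide 44 against a median of 0.2, and AI920392 at 2.27 in 005x250 on slide 34 against 1.16. The departures of both hybrids from the same parents differed at 388 spots, as given above for the reciprocal comparison. Among spots without an identifier, which entered no comparison, 20 of 29 inside the print blocks were brighter on average over the samples of the 4 genotypes than the unnamed spots at the block edge, with the brightest at a log2 level of 4.15.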

How the results depend on the processing

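No paired analysis was possible because the replicate numbers in the titles differ for every sample, apart from the pairing of 2 samples on each slide, which was the block throughout. Calls follow as percent of tested spots, in the order 005x250, 250x005, lines, reciprocal and mean of hybrids, against 0.00845, 1.73, 0, 3.28 and 0.135% as reported. Without slides 18, 19 and 46 they were 0, 0.118, 0.372, 0.186 and 0%. With slides 288 and 289 they were 0, 0.161, 0, 1.12 and 0%. Array weights gave 0, 0.0253, 1.55, 2.23 and 0%, the slide as a random block 0.0253, 6.35, 2.29, 4.11 and 0.329%, and the 11 slides alone 0, 0, 0, 0.49 and 0%. Scanner tables gave 0.0507, 1.89, 0.076, 5.31 and 0.118%. Without slides 44 and 46 they were 0.0169, 5.62, 0, 6.07 and 0.211%, and with near-identical slides counted apart 0.0169, 5.21, 0.405, 5 and 0.304%. Loess gave 0.0338% for 005x250 and 0.11% for the lines, centring 0.11% for the lines and 0.203% for the mean of hybrids, and dyes of the label field 0.0169% for 005x250. Bright spots alone gave 0, 1.72, 0.251, 4.81 and 0.235% of the 6383 spots then tested, so that calls of 250x005 also fell by over 1.5 times as a count. Slides below 100 alone gave 0, 1.3, 0.414, 1.32 and 0.0676%. Slides above 900 alone gave 0% for 005x250 and the lines and no value for the others. Between both slide ranges, differences correlated at -0.06 (005x250) and -0.08 (lines) over 11838 spots. The following were added after seeing the data. Print block medians gave 0, 3.24, 0.346, 2.36 and 0.0338%, and 0.0169, 0.127, 0.963, 0.0845 and 0.00845% when slides 18, 19 and 46 were also left out. Medians of surrounding spots gave 0, 1.53, 0.49, 3.32 and 0.0338%. Weights without the 3 slides gave 0, 0.144, 1.89, 2.28 and 0%. Leaving out each of the 11 slides in turn gave 0 (slide 18) to 0.0845% (942), 0.00845 (19) to 4.11% (15), 0 (16, among others) to 0.803% (19), 0.65 (19) to 4.97% (15) and 0 (16) to 0.574% (15). The cause of these shifts was not tested. Among spots given with values of their own, 3 reversed between the lines on slides above 900 alone: AI622244 at 0.22, AI783258 at 0.47 and AW257883 at -0.22. Of the other values of these spots under all alternatives, 1306 kept direction and side of the threshold, 288 lost the call and the rest gained one. These figures hold 5 of the 50 differences of spots with a gene symbol, the one of smallest unadjusted p in each comparison. Of the 45 others, none called as reported, 34 changed sign under at least 1 alternative, so no direction can be read from them.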
